A study of Homo sapiens with 18 samples.

Results

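The 10 genes described here carry out or control the uptake, storage and export of iron: TFRC, SLC11A2, FTH1, FTL, NCOA4, SLC40A1, ACO1, IREB2, FBXL5 and HMOX1. They were chosen by name from the 45372 gene symbols of the expression table, and the choice rests on a value of these data, since TFRC and FTH1 were both lower in THP1 cells after 24 h of treatment. For that reason the THP1 values at 24 h, and the TFRC and FTH1 values in every comparison that uses THP1, are given as a description with no test. RNA was sequenced from 2 human acute myeloid leukemia (AML) cell lines with KMT2A rearrangements, MV4-11 and THP1 (THP-1 in the labels). Each line received either DMSO, the solvent control, or 50 nM IACS-010759 (IACS), an inhibitor of complex I of the mitochondrial respiratory chain, for 8 or 24 h. There were 3 libraries in each of the 6 groups, 18 in all, described by the submitters as independent replicates of plated cells. The time at which the DMSO cells were collected is not given in the sources used here, so time in culture and treatment cannot be told apart. Each line stems from 1 patient's cells kept in culture, and the results describe these cultures.

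Iron enters most cells bound to transferrin, which the transferrin receptor TFRC carries into endosomes, and SLC11A2 (DMT1) moves it from there to the cytosol. Iron that is not used is stored in ferritin, a shell built from the heavy chain FTH1 and the light chain FTL, and is released when the cargo receptor NCOA4 takes ferritin to the lysosome. Ferroportin, SLC40A1, is the known exporter of iron from cells, and HMOX1 frees iron from heme. The system is controlled after transcription by the iron regulatory proteins IRP1 (ACO1) and IRP2 (IREB2), which bind a hairpin in target mRNAs, the iron-responsive element, when iron is scarce. Binding in the 3′ UTR of TFRC protects the mRNA from decay, whereas binding in the 5′ UTR of FTH1, FTL or SLC40A1 blocks translation. IRP1 holds an iron-sulfur cluster and acts as an aconitase when iron is plentiful, and FBXL5 is the iron-sensing subunit of the ubiquitin ligase that removes IRP2.

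The elements are shown because the iron regulatory proteins act through them, and because TFRC and FTH1 carry them at opposite ends of the mRNA. Each sequence below is the 29 bases of the GRCh38 reference, read on the strand of the gene, with the bulged C and the 6-base loop in capitals.
TFRC 3′ UTR 1: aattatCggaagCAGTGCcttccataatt
TFRC 3′ UTR 2: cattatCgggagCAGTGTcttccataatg
TFRC 3′ UTR 3: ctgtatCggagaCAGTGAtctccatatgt
TFRC 3′ UTR 4: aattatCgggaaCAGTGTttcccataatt
FTH1 5′ UTR: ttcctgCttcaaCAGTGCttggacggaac
FTL 5′ UTR: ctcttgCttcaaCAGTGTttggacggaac
SLC40A1 5′ UTR: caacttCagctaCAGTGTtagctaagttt

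These 7 matches were found with 1 pattern, a C followed by 5 bases, the loop CAGTGN and 5 bases able to pair with the first 5 (G with T allowed), on the transcript strand of 1 canonical transcript per gene. The TFRC matches lie in the last exon, 19 of 19, on the minus strand, at chr3:196050979-196051007, chr3:196050575-196050603, chr3:196050510-196050538 and chr3:196050463-196050491. Those of the other genes lie in exon 1, at chr11:61967574-61967602 (minus strand) for FTH1, chr19:48965335-48965363 (plus strand) for FTL and chr2:189580661-189580689 (minus strand) for SLC40A1. The FTH1 and FTL elements shared 26 of 29 bases, and the TFRC elements shared 18 to 25 of 29 with each other, counts that include the bases fixed by the pattern. The pattern was present in 0.0977% of 19441 annotated 5′ UTRs and in 0.624% of 19550 3′ UTRs, which differ in length. Of those 3′ UTRs, 1 held 4 or more matches, that of TFRC. An element that departs from the pattern would not be found, so these 4 need not be all that TFRC carries. The UTRs of SLC11A2, NCOA4, ACO1, IREB2, FBXL5 and HMOX1 in these transcripts held no match, which says only that these letters were not in these windows.

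Levels are given in TPM, a unit of transcript abundance corrected for gene length and library size, so that levels of different genes can be compared. An estimated 21700000 to 28500000 reads lay behind each library. In every library 5 noncoding RNAs (RPPH1, RMRP, RN7SK, RN7SL2 and RN7SL1) together took 39.6 to 60.1% of all TPM, which scales the level of every other gene in that library. The smallest share belonged to MV4-11 IACS 8 h replicate 3 and the largest to THP1 IACS 24 h replicate 3. Both lines expressed myeloid genes, with LYZ at 3797 to 7073 TPM in MV4-11 and 613 to 1100 TPM in THP1, although CD14 reached at most 0.528 TPM in any library. The erythroid markers HBB and ALAS2, a gene that itself carries an iron-responsive element, were at 0 in all 18 libraries, and the 8 erythroid markers together reached at most 2.04 TPM.

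In DMSO, FTL was the highest of the members in both lines and the highest of 18817 protein-coding genes by its mean over the 18 libraries, 9938 TPM. FTH1 was rank 180 with a mean of 261 TPM. In MV4-11 DMSO cells the order of mean levels was FTL (11640 TPM), FTH1 (257), NCOA4 (149), TFRC (124), IREB2 (41.8), FBXL5 (31.1), ACO1 (8.90), SLC11A2 (8.18), HMOX1 (0.520) and SLC40A1 (0.203). Of neighbours in that order, ACO1 and SLC11A2 overlapped between libraries. In THP1 DMSO cells the order was FTL (8767 TPM), FTH1 (318), NCOA4 (138), TFRC (88.2), FBXL5 (74.9), IREB2 (37.3), SLC40A1 (16.5), ACO1 (8.90), SLC11A2 (6.59) and HMOX1 (0.711). Here TFRC and FBXL5 overlapped. The reference annotation lists 25 FTH1 and 16 FTL pseudogenes, none of which is a symbol of the expression table, and how reads matching several copies were counted is not given in the sources used here, so the ferritin levels are uncertain for that reason.

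**Figure D1:**
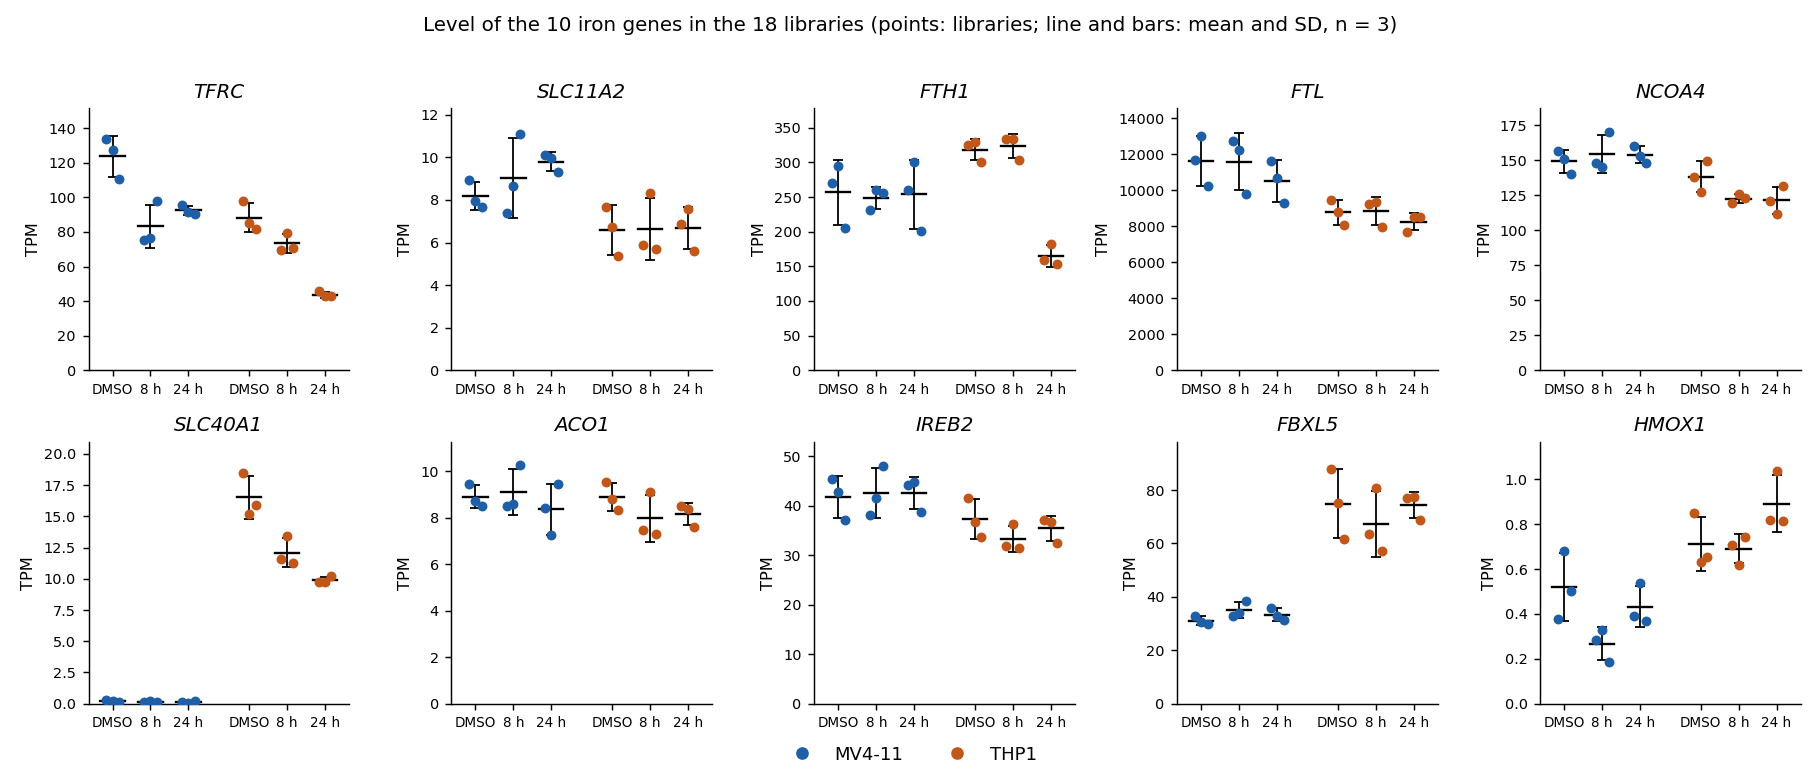
Level of each of the 10 members in TPM (vertical axes, each starting at 0) in DMSO and after 8 and 24 h of IACS, for MV4-11 (blue) and THP1 (orange). Points are libraries, and the horizontal line and bars are the mean and SD of 3 libraries. In THP1 at 24 h TFRC lies at 42.8 to 45.8 TPM and FTH1 at 153 to 182 TPM, below every other THP1 library, and SLC40A1 is near 0 in MV4-11.

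The members that differed most between the untreated lines were the exporter and the sensor of IRP2 control. SLC40A1 was at 18.5, 15.2 and 15.9 TPM in the 3 THP1 DMSO libraries and at 0.268, 0.181 and 0.159 TPM in those of MV4-11. The groups were far apart, and the ratio of the means was 81.5. In MV4-11 DMSO these levels rested on about 9 to 12 reads per library, against 621 to 759 in THP1. On the log2(TPM + 1) scale, which understates differences of low genes, the difference was 3.86 ± 0.12 (SE, limma adjusted p = 6.32e-15).

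FBXL5 was at 87.7, 75.3 and 61.8 TPM in THP1 DMSO and at 33.0, 30.5 and 29.8 TPM in MV4-11 DMSO. Every THP1 library was higher, with a mean 2.41 times that of MV4-11 and a log2 difference of 1.23 ± 0.14 (SE, limma adjusted p = 6.18e-07). These were the 2 of 7 tested members that were called, meaning an adjusted p under 0.05 and a difference beyond 1.5-fold on that scale. Among all genes, 36.9% were called in that comparison, so a call between the lines is common. FTL was lower in THP1, by 0.41 on the log2 scale (SE 0.15, adjusted p = 0.0279), which is under the fold threshold, and its groups did not overlap. ACO1 had almost the same mean in both lines, with a log2 difference of 0.00 (95% interval -0.26 to 0.26). As a description, TFRC was 0.49 lower and FTH1 0.33 higher in THP1 on the log2 scale, each without overlap between the groups. With libraries scaled by the median of ratios the FTH1 groups overlapped, reaching 283 TPM in MV4-11 and starting at 282 TPM in THP1.

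TFRC, the receptor for transferrin, had the largest difference from DMSO of the 8 members fitted in MV4-11. Its level was 133, 127 and 111 TPM in DMSO, 75.6, 76.6 and 97.7 TPM after 8 h of IACS, and 95.4, 91.6 and 90.3 TPM after 24 h. All 6 treated libraries lay below all DMSO libraries, and the highest of them was 8 h replicate 3, the library with the smallest noncoding share. The mean at 8 h was 67.3% of DMSO, a log2 difference of -0.57 ± 0.13 (SE) with an unadjusted p of 0.000818 and a limma adjusted p of 0.426. Scaling by the median of ratios set that library's TFRC at 78.4 TPM beside 79.1 and 74.3 TPM. On scaled values the difference was -0.63 with a limma adjusted p of 0.0158, and TFRC was called, as were 0.0296% of all genes. At 24 h the difference was -0.41 ± 0.13 (SE, adjusted p = 0.241), and scaled it was -0.50 with an adjusted p of 0.0146, short of the fold threshold. From 8 to 24 h the change was 0.16 (adjusted p = 1), and the libraries overlapped.

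In THP1, TFRC was at 97.6, 85.3 and 81.5 TPM in DMSO, 69.7, 79.5 and 70.9 TPM at 8 h, and 45.8, 42.8 and 42.8 TPM at 24 h. On these unscaled values the 3 groups did not overlap, and the lowest levels were those at 24 h. Scaled by the median of ratios, the 8 h libraries (77.6, 71.6 and 89.9 TPM) overlapped those of DMSO (84.7, 80.2 and 93.8 TPM). The 24 h libraries, at 41.0 to 54.7 TPM, stayed below both. The mean was 83.2% of DMSO at 8 h and 49.7% at 24 h, log2 differences of -0.26 and -0.99. The median of all genes was also below 0 in THP1, at -0.12 at both times, and relative to it TFRC differed by -0.14 and -0.87. At 24 h, where 0.0431% of all genes tested passed both thresholds, TFRC and FTH1 were the members that did, which follows from how the members were chosen. Over all left-out libraries the log2 difference of TFRC ran from -1.04 to -0.92.

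SLC11A2, the endosomal transporter, was low in both lines and showed no call. In MV4-11 it was at 8.92, 7.94 and 7.69 TPM in DMSO and at 10.1, 9.97 and 9.31 TPM at 24 h. All 24 h libraries were above DMSO, with a log2 difference of 0.24 (95% interval -0.07 to 0.54, adjusted p = 0.525). In THP1 its group means were 6.59, 6.64 and 6.69 TPM, and the libraries overlapped at both times.

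Of the 2 ferritin chains, the heavy chain was the lower one in THP1 at 24 h relative to DMSO. FTH1 was at 326, 329 and 301 TPM in DMSO, 333, 334 and 304 TPM at 8 h, and 159, 182 and 153 TPM at 24 h. The 8 h libraries overlapped those of DMSO, and the 24 h libraries were about level with one another and far below. The mean at 24 h was 51.8% of DMSO and 51.0% of 8 h, log2 differences of -0.95 and -0.97. Against 8 h, TFRC differed by -0.73. The share of all genes past both thresholds there was 0.00718%, which is FTH1 itself and, as FTH1 was chosen for its 24 h level, supports nothing.

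FTL in THP1 was at 9450, 8772 and 8079 TPM in DMSO, 9245, 9369 and 7957 TPM at 8 h, and 7693, 8528 and 8502 TPM at 24 h. The groups overlapped, and the mean at 24 h was 94.0% of DMSO. Relative to the all-gene median the FTL difference at 24 h was 0.03. FTH1 therefore stood at 3.64 ± 0.17 TPM (SD, n = 3) per 100 TPM of FTL in DMSO, 3.66 ± 0.14 at 8 h and 2.00 ± 0.18 at 24 h, a ratio taken within each library that does not depend on its scaling.

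In MV4-11 neither ferritin chain was called. FTH1 was at 271, 294 and 205 TPM in DMSO, 231, 260 and 255 TPM at 8 h, and 260, 301 and 201 TPM at 24 h. The 3 groups overlapped, with log2 differences from DMSO of -0.03 (95% interval -0.40 to 0.34) and -0.02 (95% interval -0.39 to 0.36). FTL means were 11640 TPM in DMSO, 11600 at 8 h and 10520 at 24 h, with overlap. The log2 ratio of FTH1 to FTL differed from DMSO by -0.02 at 8 h (two-sided exact permutation test, p = 1) and by 0.13 at 24 h (p = 0.6, exact permutation test), where 0.1 is the smallest p that 3 against 3 libraries can give. At 24 h the difference between the lines in the response to IACS was -0.93 for FTH1 and -0.58 for TFRC on the log2 scale, THP1 minus MV4-11, and was not tested because the members were chosen with the THP1 values.

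**Figure D2:**
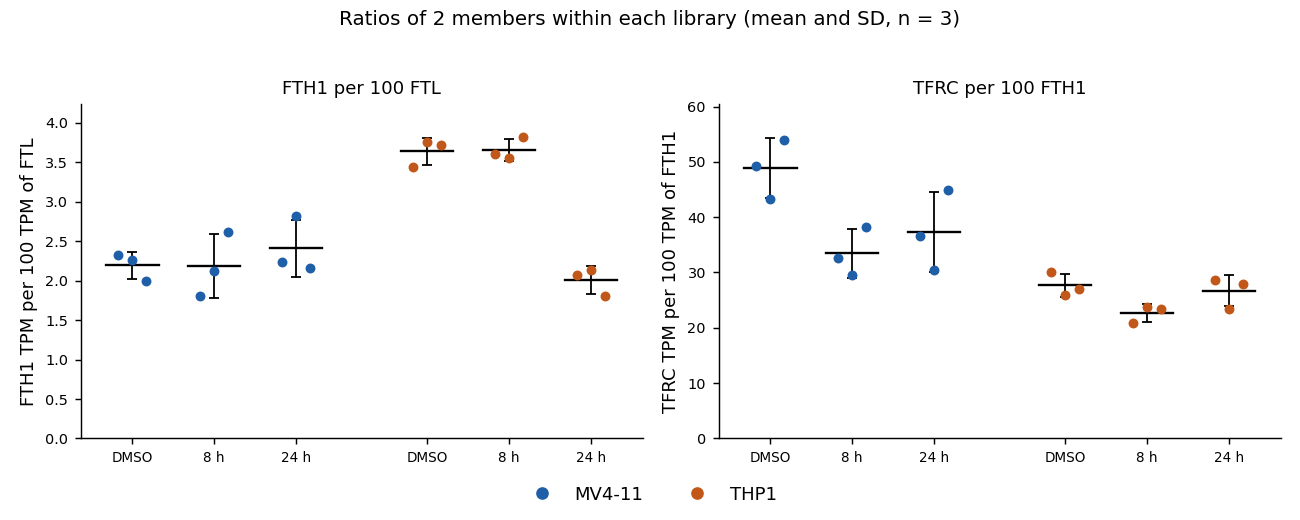
FTH1 TPM per 100 TPM of FTL (left) and TFRC TPM per 100 TPM of FTH1 (right) in each library, by line and treatment, with the mean and SD of 3 libraries. The left panel shows THP1 dropping from 3.44 to 3.75 in DMSO to 1.80 to 2.14 at 24 h, while the right panel shows the THP1 ranges of DMSO and 24 h overlapping.

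The balance of TFRC to FTH1 was also taken within each library. Per 100 TPM of FTH1, TFRC was at 48.9 ± 5.38 TPM (SD, n = 3) in MV4-11 DMSO, 33.5 ± 4.41 at 8 h and 37.3 ± 7.25 at 24 h. In THP1 it was at 27.7 ± 2.10 in DMSO, 22.7 ± 1.56 at 8 h and 26.7 ± 2.84 at 24 h. The MV4-11 DMSO libraries (43.3 to 54.0) lay above those at 8 h (29.5 to 38.2) and overlapped those at 24 h, and in THP1 the 8 h libraries lay below DMSO while those at 24 h overlapped it.

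SLC40A1, the iron exporter, was lower in the treated THP1 libraries than in those with DMSO. It was at 18.5, 15.2 and 15.9 TPM in DMSO, 11.5, 13.4 and 11.3 TPM at 8 h, and 9.72, 9.72 and 10.2 TPM at 24 h. The 3 groups did not overlap on these unscaled values. Scaled by the median of ratios, 24 h (10.2, 9.31 and 13.1 TPM) overlapped 8 h (12.9, 12.1 and 14.3 TPM). The lowest scaled DMSO library, at 14.31 TPM, lay just above the highest at 8 h, 14.28 TPM. At 8 h the mean was 73.1% of DMSO, a log2 difference of -0.42 ± 0.14 (SE) and of -0.30 relative to the all-gene median, with an unadjusted p of 0.0106 and an adjusted p of 0.941. At 24 h the mean was 59.8% of DMSO, with a log2 difference of -0.68 and of -0.57 relative to the median. A fit that pairs THP1 libraries by replicate number, as their correlations allow, put SLC40A1 past both thresholds at 24 h, where it also put 2.13% of all genes. The same fit on values scaled by the median of ratios did not, with a difference of -0.56. In MV4-11, SLC40A1 stayed between 0.0475 and 0.268 TPM, about 2 to 12 reads in a library, and was below the filter.

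NCOA4, the receptor that takes ferritin to the lysosome, was at 138, 127 and 150 TPM in THP1 DMSO, 119, 126 and 123 TPM at 8 h and 121, 112 and 132 TPM at 24 h. All 8 h libraries were below DMSO, though by 0.17 on the log2 scale (95% interval -0.44 to 0.10, limma adjusted p = 0.941). Scaled by the median of ratios they overlapped, at 133, 113 and 156 TPM against 120, 119.5 and 172 TPM in DMSO. The 24 h libraries overlapped DMSO. In MV4-11 its group means were 149, 155 and 154 TPM, with overlap at both times.

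The iron regulatory proteins and the IRP2 sensor gave no call at any time tested. ACO1 (IRP1) ranged from 7.26 to 10.3 TPM over the 18 libraries and IREB2 (IRP2) from 31.5 to 48.1 TPM. In MV4-11 their log2 differences from DMSO lay between -0.08 and 0.03, with 95% intervals from -0.36 to 0.30. In THP1 at 8 h, ACO1 differed by -0.15 and IREB2 by -0.16, close to the all-gene median of -0.12. FBXL5 differed from DMSO by 0.17 at 8 h and 0.09 at 24 h in MV4-11, and by -0.15 at 8 h in THP1 (adjusted p = 0.941). In THP1 at 24 h the 3 genes were described at -0.11, -0.07 and 0.00, each with overlapping libraries.

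HMOX1, the inducible heme oxygenase, was at 0.186 to 0.682 TPM in MV4-11 and 0.619 to 1.04 TPM in THP1, below the filter of a mean of 1 TPM, and was not fitted. In MV4-11 it was at 0.379, 0.682 and 0.500 TPM in DMSO and at 0.282, 0.330 and 0.186 TPM at 8 h. These values rest on about 9 to 18 reads per DMSO library and 4 to 8 per 8 h library, too few to weigh the gap between the groups. HMOX2, the constitutive enzyme, was a listed gene at 27.5 TPM in MV4-11 DMSO and 16.4 TPM in THP1 DMSO.

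**Figure D3:**
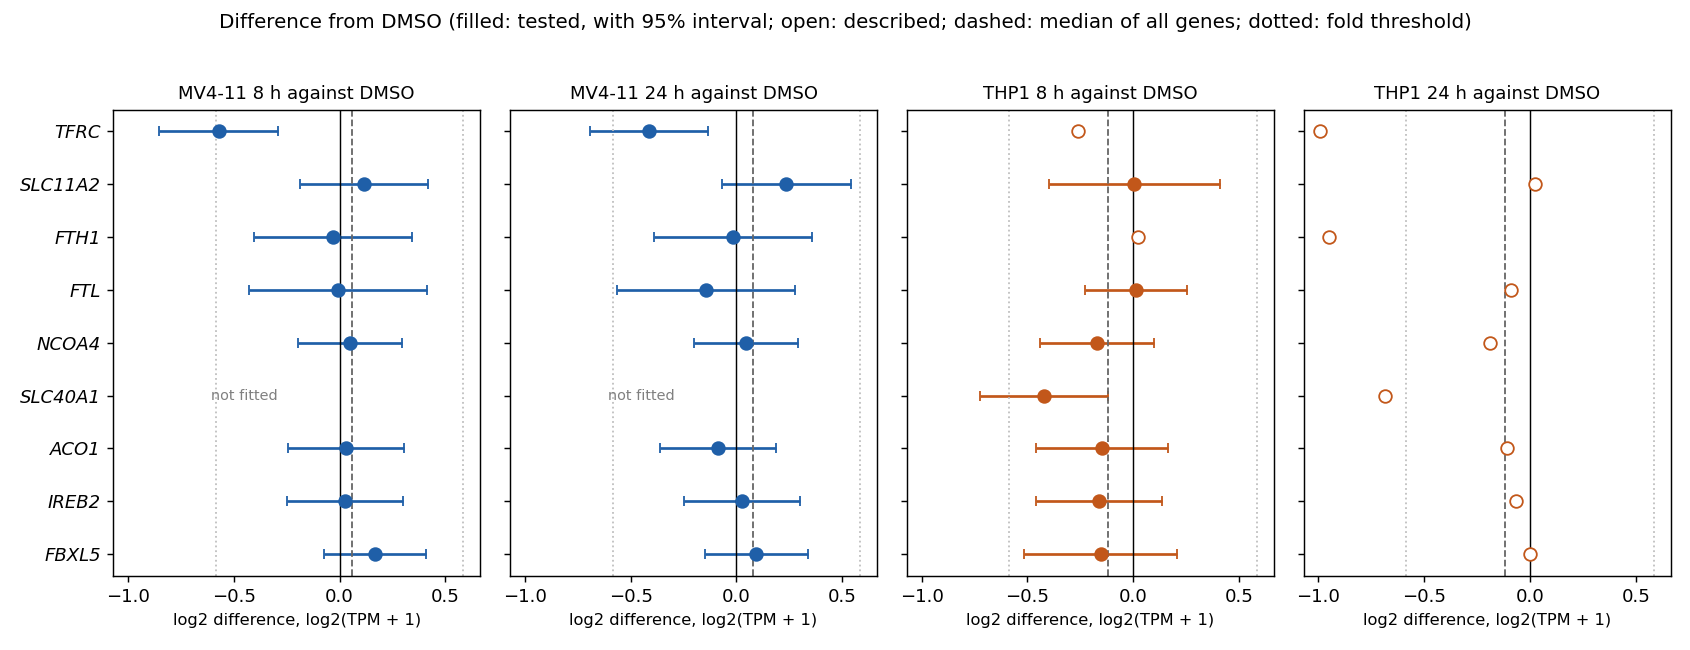
Log2 difference from DMSO of 9 members in the 4 IACS comparisons, on the log2(TPM + 1) scale. Filled points were tested and carry the 95% interval, open points are descriptions, the dashed line is the median of all genes and the dotted lines are the fold threshold. TFRC is the lowest member in both MV4-11 panels, and TFRC (-0.99), FTH1 (-0.95) and SLC40A1 (-0.68) stand apart in THP1 at 24 h.

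In the count over members, limma called 0 of 8 tested members in MV4-11 at 8 h, where 0.0148% of all genes were called, 0 of 8 at 24 h (0.0886% of all genes) and 0 of 8 from 8 to 24 h (0% of all genes). It called 0 of 7 in THP1 at 8 h, where 0.0144% of all genes were called. With shares of all genes this small, a count of 0 is close to the background. An unadjusted p under 0.05 was reached by 1 member in MV4-11 at 8 h and at 24 h (TFRC), by 0 from 8 to 24 h, and by 1 in THP1 at 8 h (SLC40A1), and the Kruskal-Wallis and Dunn tests called 0 in each. Of all genes, 4.39, 12.0, 2.3 and 2.11% reached that p in the same 4 comparisons. The 8 h difference from DMSO was also compared between the lines for the 7 members other than TFRC, FTH1 and HMOX1. Limma gave adjusted p of 0.91 to 0.984, with 0.00708% of all genes called. SLC40A1, at about 2 to 12 reads per MV4-11 library, could show little change there on the log2(TPM + 1) scale. Its value (-0.37, THP1 minus MV4-11) therefore rests almost wholly on THP1 and cannot compare the responses. The median log2 difference of the members was 0.03 in MV4-11 at 8 h, beside 0.06 over all genes, and 0.01 at 24 h, beside 0.08. In THP1 it was -0.15 at 8 h and -0.11 at 24 h, beside -0.12 for all genes at both times.

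In THP1 the summed level of the 10 myeloid markers, most of it LYZ, was 1425 to 1667 TPM in DMSO, 1298 to 1485 TPM at 8 h and 1123 to 1258 TPM at 24 h, with no overlap between DMSO and 24 h and none of the 10 at 0. At 24 h the means of 8 of the 10 were lower than in DMSO. Of all genes 72.9% were below 0 there, with a median log2 difference of -0.12. Singly, on unscaled values, LYZ, CD68, ITGAM and CSF1R were lower in every 24 h library than in every DMSO library. The other 6 overlapped. LYZ was at 613 to 801 against 874 to 1100 TPM. The share of all genes separated in this way was not counted, and the marker levels were not tested. The sums are unscaled too, and median-of-ratios scale factors ran from 0.87 to 1.15 in DMSO and 0.78 to 1.04 at 24 h. Scaled marker levels are not given here, so the gaps are shown for unscaled values only. Any part of these marker differences in the TFRC, FTH1 and SLC40A1 values was not tested. Because the cells were sequenced in bulk, fewer cells of a kind and less RNA per cell cannot be told apart.

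The wider iron system was followed through 84 other genes in 9 lists, of which 65 passed the filter in at least 1 fit. The 4 genes of export and ferroxidases (HAMP, CP, HEPH and HEPHL1) did not pass, with no library over 0.636 TPM. TF, the transferrin gene, reached at most 0.142 TPM. No listed gene was called in the IACS comparisons, with 0 of 64 in MV4-11 at 8 h, at 24 h and from 8 to 24 h, and 0 of 65 in THP1 at 8 h. An unadjusted limma p under 0.05 was reached by 0, 7, 1 and 1 genes in that order, beside 4.39, 12.0, 2.3 and 2.11% of all genes, and the Kruskal-Wallis and Dunn tests called 0.

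In MV4-11 at 8 h the smallest p values among the better expressed listed genes were those of CIAO3, which joins the cytosolic iron-sulfur assembly, with a log2 difference of 0.28 ± 0.17 (SE, adjusted p = 0.982), and of SLC25A37 (mitoferrin 1), at 0.23 ± 0.14. At 24 h they were those of SLC39A8, a zinc and iron importer, at -0.28 ± 0.10 (adjusted p = 0.302), and of MAFG, a partner of NRF2 and BACH1, at 0.39 ± 0.14 (adjusted p = 0.303). The other genes with an unadjusted p under 0.05 at 24 h were CYBRD1, SLC25A37, SLC25A28, MAFK and ARNT. Both mitochondrial importers, SLC25A37 (0.36, 37.7 TPM against 29.1 in DMSO) and SLC25A28 (0.46, 35.6 TPM against 25.1), lay above every DMSO library, with adjusted p of 0.323 and 0.39. From 8 to 24 h the leading genes were SLC48A1, a heme transporter, at 0.31 ± 0.12 and ISCA1 at -0.25 ± 0.15. In THP1 at 8 h they were CYBRD1, a ferric reductase, at -0.33 ± 0.14 (7.79 TPM against 10.1, adjusted p = 0.941), and PGRMC1, a heme-binding protein, at -0.27 ± 0.17.

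By list, the medians in MV4-11 at 24 h ran from -0.09 for the FBXL5 partners and other mRNAs with the element to 0.41 for the 2 mitochondrial importers, beside 0.08 over all genes. The 16 genes of mitochondrial iron-sulfur cluster assembly had a median of -0.02 there and of 0.03 at 8 h. In THP1 at 8 h the list medians ran from -0.17 to -0.08, all near the all-gene value of -0.12, and 54 of 65 genes were below 0, beside 83.6% of all genes. In THP1 at 24 h, as a description, all 16 genes of the mitochondrial and all 8 of the cytosolic assembly had differences below 0. Their medians were -0.18 and -0.24 beside -0.12 over all genes, of which 72.9% were below 0. Against that all-gene median, 7 of the 16 mitochondrial genes lay above and 9 below, and all 8 cytosolic genes lay below. BOLA3, of the mitochondrial group, had the lowest value there, at 11.1 TPM against 19.6 in DMSO (log2 -0.78), followed by NDOR1, of the cytosolic group, at 23.0 against 36.1 TPM (-0.67). BOLA3 was past both thresholds with median-of-ratios scaling, as were 0.713% of all genes, and without the 5 noncoding RNAs, as were 92 of 15728 genes. It was also past them with the replicate block, as were 2.13% of all genes on unscaled values and 1.31% on scaled ones. NDOR1 was past them with the block on unscaled values. Both were named after their values were seen, so these passes support nothing. CYBRD1 had the highest value, at 13.1 against 10.1 TPM (0.35).

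**Figure D4:**
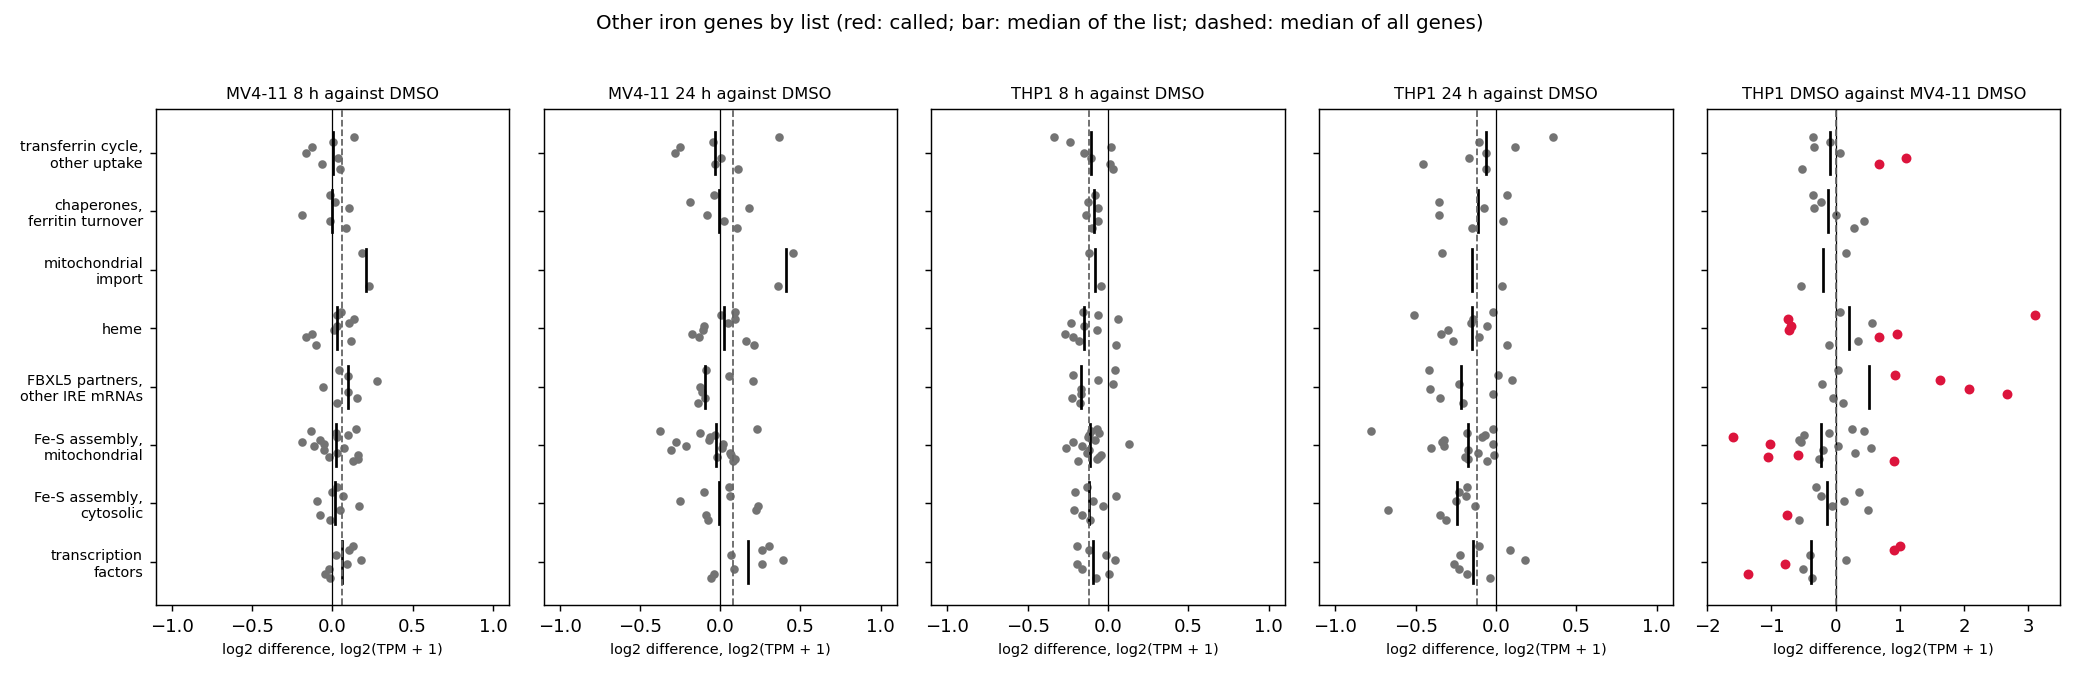
Log2 difference on the log2(TPM + 1) scale of the listed iron genes that passed the filter, by list, in the 4 IACS comparisons and between the DMSO groups of the lines (the last panel has a wider axis). Each point is 1 gene, red points were called, short bars are list medians and dashed lines the median of all genes. No point is red in the 4 IACS panels with the settings plotted, and 22 are red between the lines.

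Between the untreated lines 22 of 65 listed genes were called, 12 higher and 10 lower in THP1, which is 33.8% beside 36.9% of all genes. BLVRA, which turns biliverdin into bilirubin, was at 42.4 TPM in THP1 and 4.08 TPM in MV4-11 (log2 3.10, adjusted p = 1.46e-10), whereas BLVRB was lower in THP1, at 28.4 against 48.0 TPM. EPAS1 (HIF-2α), whose mRNA has a known element, was at 12.6 ± 3.66 TPM (SD, n = 3) against 1.09 ± 0.08 (log2 2.67). The other element-bearing mRNAs CDC14A (12.3 against 5.91 TPM) and CDC42BPA (2.12 against 0.00182 TPM) were higher in THP1 too. CUL1, the scaffold of the ligase in which FBXL5 works, was at 111 TPM against 25.1 (log2 2.08, limma adjusted p = 6.74e-09), so FBXL5 and CUL1 were both higher in THP1. The other listed partners of FBXL5, SKP1 and RBX1, were not called. Over all libraries of each line SKP1 was at 18.5 to 29.2 TPM in THP1 and 19.1 to 27.3 TPM in MV4-11. RBX1 was at 14.7 to 25.3 TPM in THP1 and 18.6 to 31.3 TPM in MV4-11. In the transferrin cycle, the reductase STEAP3 (21.8 against 13.3 TPM) and the sorting protein SNX3 (228 against 106 TPM) were higher.

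Among the iron-sulfur genes FDXR, the ferredoxin reductase, was at 5.04 TPM in THP1 and 17.3 TPM in MV4-11 (log2 -1.60), and ISCU, LYRM4, HSCB and NUBP1 were also lower, by 0.59 to 1.06 on the log2 scale, whereas NFU1 was higher (18.5 against 9.41 TPM). ISCU, near the fold threshold, was not called without MV4-11 DMSO replicate 1, without THP1 DMSO replicate 3 or without the 5 noncoding RNAs. Of the heme genes, PGRMC1 and PGRMC2 were higher, and HMOX2 and FLVCR2 were lower. Of the transcription factors, HIF1A and ARNT were higher, by 0.91 and 1.00, and MAFK and MYC were lower, by 0.78 and 1.37.

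The genes whose pattern over the 18 libraries was most like that of each leading member were listed as a description, after scaling the libraries and removing the mean of each line, among the 6671 genes that averaged 10 TPM or more in each line. For TFRC they were PLAC8 (Pearson r = 0.95), FCF1 (0.90), GNG5 (0.89), RAC1 (0.87) and PSME3 (0.87). For FTH1 they included MSRA (0.89), IL17RA (0.88), PGD (0.86) and ZZEF1 (0.86). TFRC and FTH1 had r = 0.76 with each other, and TFRC had r = 0.22 with FTL and -0.54 with FBXL5. The libraries share the treatment groups and their scaling, and TFRC and FTH1 were selected on 6 of them.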

How the data were processed

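The deposited table holds TPM values, and the authors made them from 100-bp paired-end reads (TruSeq RNA Sample Prep v2, NovaSeq 6000), trimmed at Q20 and 50 bp, with CLC Genomics Workbench v20 used for alignment (GRCh38) and for TPM. Which annotation was used, and whether strand was, is not given in the sources used here. TPM keep no exact depth, and the reads given are estimates from low values and GENCODE 44 exon lengths, where 78.5 to 80.8% of low values came out whole within 0.05.

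The members and the gene lists were chosen with earlier results of these data known. Genes averaging 1 TPM or more over the fitted libraries were tested on log2(TPM + 1) with limma 3.58.1 (trend, R 4.3.3) and Benjamini-Hochberg adjustment over all of them. MV4-11 and THP1 were fitted apart with 9 libraries each, and the DMSO groups were compared in a fit of all 18. Calls needed an adjusted p under 0.05 and a difference beyond 1.5-fold on that scale. Named listed genes were those called in a tested comparison and, in each, the 2 of smallest p that averaged 5 TPM or more. BOLA3, NDOR1, SLC25A28, HMOX2, TF and the export genes were named after their values were seen. SKP1 and RBX1 met neither rule and were named as the other listed partners of FBXL5. Fits were tested on simulated data. Alternatives were the pseudocount, the filter, the scaling, the samples fitted, the replicate block, other tests and leaving out libraries. Of the genes with a pattern like that of FTH1, 1 is not reported here. Elements were searched with Python 3.11.15.

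Replicate numbers come from the labels. Deviations of same-numbered libraries from their group means correlated at over 0.1 in every pair for THP1 24 h against DMSO (r 0.15 to 0.32), THP1 24 h against 8 h (0.18 to 0.36) and MV4-11 24 h against 8 h (0.11 to 0.44), and not in every pair of the other comparisons. Between differently numbered libraries r reached 0.10, 0.15 and 0.39 in those comparisons, in the same order. In MV4-11 this is above the lowest same-numbered r of 0.11, so passing 0.1 does not mark pairs there. P-values measure the spread between these 3 cultures per group.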

Additional observations from a re-analysis of the deposited data

How the results depend on the processing

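Of 767 alternative values of the tested member differences, 712 kept their direction and side of the thresholds, 53 changed sign and 2 passed the thresholds. With median-of-ratios scaling, with or without the replicate block, 1 member (TFRC) was called in MV4-11 at 8 h, as were 0.0296% of all genes. SLC40A1 and FBXL5 were called between the lines in all alternatives except a minimum mean of 10 TPM. That filter removes SLC40A1 and leaves 1 call, FBXL5. No setting or left-out library gave a call to another tested member or to a listed gene in the tested IACS comparisons. The changes of sign concerned differences near 0. With median-of-ratios scaling, with or without the block, they were NCOA4 -0.011, ACO1 -0.028 and IREB2 -0.033 in MV4-11 at 8 h, NCOA4 -0.043 and IREB2 -0.059 at 24 h, and FTH1 -0.014 and IREB2 -0.025 from 8 to 24 h. Without the 5 noncoding RNAs they were NCOA4 -0.0083 and IREB2 -0.025 at 24 h, and FTH1 -0.029 and IREB2 -0.040 from 8 to 24 h. With a pseudocount of 0.1, ACO1 between the lines was -2.2e-05.

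When 1 library was left out, the values that changed sign ranged in MV4-11 at 8 h from -0.029 to 0.24 for SLC11A2, -0.18 to 0.077 for FTH1, -0.098 to 0.11 for FTL, -0.020 to 0.093 for NCOA4, -0.051 to 0.072 for ACO1, -0.061 to 0.10 for IREB2 and -0.16 to 0.10 for the FTH1 to FTL ratio. At 24 h they ranged from -0.17 to 0.14 for FTH1, -0.17 to 0.0025 for ACO1 and -0.052 to 0.093 for IREB2. From 8 to 24 h they ranged from -0.00034 to 0.26 for SLC11A2, -0.12 to 0.17 for FTH1, -0.047 to 0.066 for NCOA4 and -0.073 to 0.089 for IREB2. In THP1 at 8 h they ranged from -0.15 to 0.11 for SLC11A2 and -0.044 to 0.089 for FTL, and between the lines from -0.046 to 0.041 for ACO1.

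The described THP1 24 h values ranged over all alternatives from -1.04 to -0.85 for TFRC, -1.02 to -0.80 for FTH1 and -0.74 to -0.56 for SLC40A1. These values were used in choosing the members, so whether they pass a threshold supports nothing, and it depended on the settings. Against DMSO neither TFRC nor FTH1 passed without THP1 DMSO replicate 1 or 2, or without replicate 1 at 8 h or 24 h. By the Kruskal-Wallis and Dunn tests TFRC and SLC40A1 passed against DMSO and FTH1 did not, where 23 of 13928 genes passed. SLC40A1 also passed there at an unadjusted p, as did 2.2% of all genes. Against 8 h, FTH1 passed without 3 of the 9 libraries and not without the other 6, nor by the Kruskal-Wallis and Dunn tests. There TFRC passed with the replicate block, as did 0.818% of all genes, and with scaling, as did 0.482%. TFRC also passed with both, as did 0.929%, and without the 5 noncoding RNAs, as did 35 of 15728 genes. The 22 listed genes called between the lines became 16 with a minimum mean of 10 TPM and 27 with a pseudocount of 0.1. Without THP1 DMSO replicate 3, FLVCR2, ISCU and MAFK were not called. CDC42BPA was not among the calls without THP1 DMSO replicate 1, 8 h replicate 2 or 24 h replicate 1 or 2. At 1.45 to 2.66 TPM in THP1 and at most 0.00676 TPM in MV4-11, its mean lies near the filter of 1 TPM. With no filter CDC42BPA was called. Counts over all genes depended on the settings far more. Against 2 calls, MV4-11 at 8 h gave 0 to 91, and against 2, THP1 at 8 h gave 1 to 106. Against 12, MV4-11 at 24 h gave 0 without any 1 of the DMSO libraries or 24 h replicate 1, 137 without 8 h replicate 3, 84 with median-of-ratios scaling, 100 with the replicate block and 269 at an unadjusted p. Against 6, THP1 at 24 h gave 1 to 307, with 99 under scaling and 296 with the replicate block. From 8 to 24 h the counts ran from 0 to 63 in MV4-11 and from 0 to 166 in THP1, with 114 with the replicate block, and between the lines from 2418 to 6333. The replicate block changed no call of a tested member on unscaled values. HMOX1, and SLC40A1 in MV4-11, are limited by depth to a few reads per library.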
